A study of Mus musculus with 2 samples.

Results

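The heat shock proteins and the DNAJ co-chaperones are the molecular chaperones of the cell, and their transcripts were followed in ovulated mouse oocytes. All genes of the deposited table whose symbol begins with Dnaj, Hspa, Hspb, Hspd, Hspe, Hsph or Hsp90 were taken, pseudogenes left out, which gave 71 of 36227 genes. The study asked how slimming of the mother relates to the transcriptome of her mature oocytes. Females of the outbred ICR strain, all obese by 12 weeks of age, spent 4 weeks in enriched-environment cages (slimming) or stayed in normal cages on standard diet (control). Metaphase II oocytes, naturally ovulated, were collected at 16 weeks, 3 from each of 3 mice, and the 9 oocytes of a group were lysed in 1 tube and sequenced as 1 library. Each group is therefore a single pool, no difference below has a replicate check, and every value describes these 2 libraries and not the conditions. In a pool, less RNA per oocyte and fewer oocytes that gave RNA cannot be told apart. Hspa1a, Hspa1b and Hspa14 matched no identifier of the table by name and were not analysed here. For Hspa14 this may reflect a change of identifier, since an identifier that overlaps it under another name is in the table and is given among the other observations.

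Chaperones of the HSP70 class bind unfolded stretches of protein in cycles of ATP hydrolysis. DNAJ proteins bring them their clients and start the hydrolysis through the J domain, and HSP110 proteins release the nucleotide. HSP90 takes over partly folded kinases and receptors, the mitochondrial HSPD1-HSPE1 chamber encloses small proteins, and small heat shock proteins hold unfolded proteins in solution. Many of these genes are switched on by heat shock factor 1, which in the mouse is also a maternal factor needed in the oocyte and early embryo. The ovulated oocyte is transcriptionally silent, so its chaperone mRNA is a stored maternal supply.

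The slimming library held 20947962 counts and the control library 20242289 counts. Oocyte markers were all present, with 10 of 10 at 10 CPM or more (CPM, counts scaled to the library total). By the scaled ratio described below, 6 were higher and 4 lower in the slimming library. The zona genes differed most, with Zp3 at 2450 CPM in slimming oocytes and 1172 CPM in control oocytes. Zp1 stood at 549 against 279 CPM and Zp2 at 283 against 158 CPM. Of 12 immediate early and handling stress genes 10 had counts, and they summed to 196 CPM in slimming oocytes and 296 CPM in control oocytes, most of it from Dusp1. Of 12 immune markers 11 had counts, summing to 27.6 CPM in slimming oocytes and 45.0 CPM in control oocytes. Without H2-Aa they held 204 and 361 counts in slimming and control oocytes, with more counts in the slimming library for 1 gene and fewer for 8. Fcer1g and Tyrobp were at 0 in the slimming library against 62 and 57 in the control library. Laptm5 had 86 against 75, and C1qb had 38 in each. Of 14 cumulus and granulosa markers 8 had counts, and the sums were 532 CPM and 529 CPM in slimming and control oocytes, largely from Serpine2. Without Serpine2 they held 864 counts in slimming oocytes and 1099 counts in control oocytes, with 1 gene higher in slimming counts and 6 lower. Inha, Cyp11a1, Inhba and Tnfaip6 were at 0 in the slimming library, against 63, 17, 12 and 8 counts in the control library, and Fshr, Amh and Foxl2 were at 0 in both. Oviduct markers (8 of 9 with counts) came to 246 CPM in both, chiefly from Cdh1. Without Cdh1 they held 135 counts in slimming oocytes and 265 counts in control oocytes, with 1 gene higher in slimming counts and 6 lower. Much of that gap was Tppp3, with 93 against 210, while Dnah5 had 26 against 15. Sperm markers (6 of 10) summed to 561 CPM in slimming oocytes and 649 CPM in control oocytes, mostly Odf2. Prm2 among them had 415 and 450 counts in slimming and control oocytes, and Prm1 was at 0 in both. Of 5 matched red cell markers 1 had a count. The part of other cells and of handling in the values below was not tested.

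Of the 71 genes, 58 had at least 1 count, and 30 reached 10 CPM in at least 1 library and were called expressed. Another 19 lay between 1 and 10 CPM, 9 were below 1 CPM, and 13 were left blank in both libraries. The blank genes include 5 of 7 small heat shock proteins (Hspb2, Hspb3, Hspb7, Hspb8 and Hspb9), the testis-type genes Hspa1l, Dnajb8, Dnajb13 and Dnajc5g, and Dnajc12, Dnajc22, Dnajc28 and Dnajc30. Together the 71 genes held 63346 counts in slimming oocytes and 61399 counts in control oocytes, or 3024 CPM and 3033 CPM, a slimming share of 50.8% (exact 95% interval 50.5 to 51.1) beside 50.9% for all counts. Intervals and floors here cover counting error only, since PCR copies cannot be separated from independent molecules. As a share of library counts, the sum of these genes was thus nearly equal in both libraries, which does not give an amount per oocyte. The 4 genes with most counts in a library held 52.1% of the sum in slimming oocytes and 49.8% in control oocytes.

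**Figure D1:**
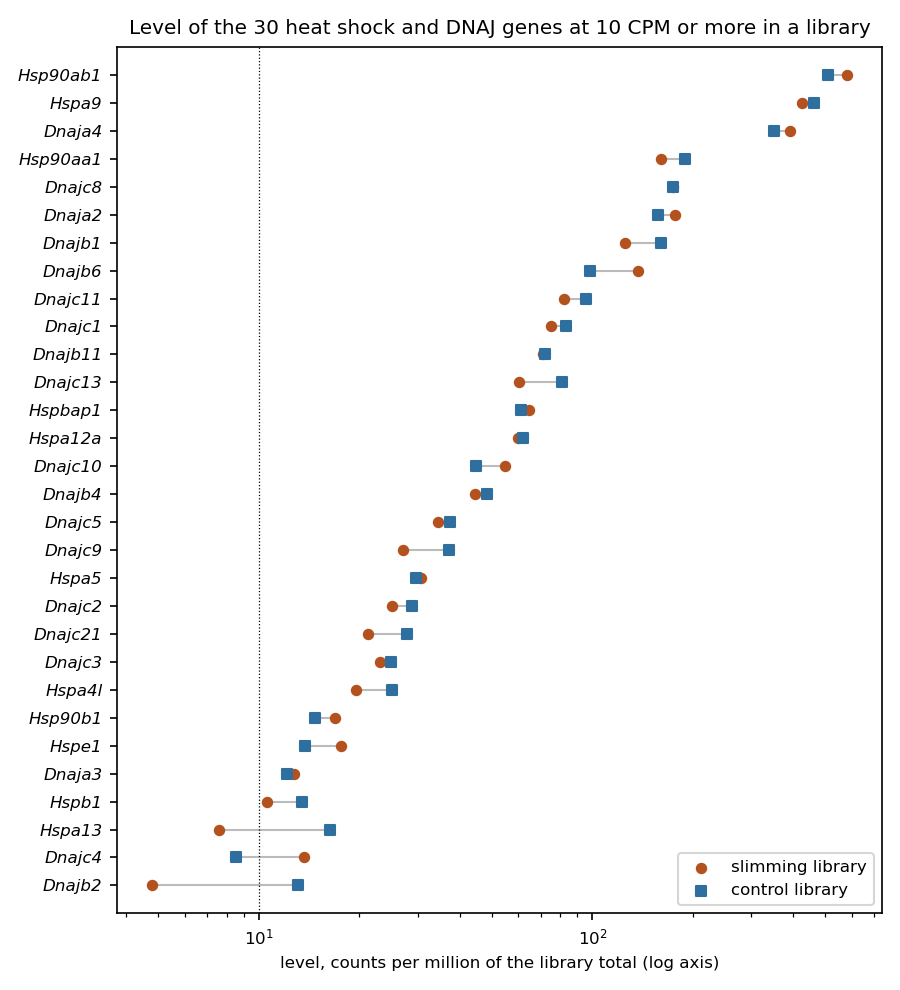
Level of each of the 30 expressed heat shock and DNAJ genes, in CPM on a log axis; round points are the slimming library, squares the control library, and the dotted line marks 10 CPM. Hsp90ab1 leads at 581 CPM in slimming oocytes and 508 CPM in control oocytes, and most pairs of points lie close together, with the widest gaps at Hspa13 and Dnajb2.

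Per kilobase of the longest coding transcript, Hsp90ab1 was also the highest, at 231 CPM per kb in slimming oocytes and 201 CPM per kb in control oocytes. Hspa9 followed at 139 and 152 CPM per kb, Dnaja4 at 131 and 117 CPM per kb, and Dnajc8 at 125 CPM per kb in each library. Hsp90ab1 and Hspa9 led in both libraries, while Dnaja4 stood above Dnajc8 with slimming and below it in the controls. Dnaja2 and Hsp90aa1 came next at 60.8 and 49.0 CPM per kb in slimming oocytes and 54.0 and 57.9 CPM per kb in control oocytes, so that these neighbours changed places. The libraries were primed at the poly(A) tail, so a level per length understates long transcripts where reads gather at the 3′ end.

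Ratios were close to equal for most of the 30 expressed genes, with more of them on the lower side. Libraries were scaled with TMM factors, a scaling that assumes most genes do not differ, and the log2 ratio is slimming over control with its 95% counting interval. In 27 of 30 genes (90%) the ratio was under 1.5-fold, where 82.5% of all 5714 expressed genes were. The slimming library was higher in 11 and lower in 19 of the 30, so 36.7% lay above 0 beside 51.4% of all expressed genes. The whole counting interval lay below 0 in 15 genes (50%) and above 0 in 7 (23.3%), where the shares over all expressed genes were 35.1% and 37.7%. The median log2 ratio was -0.15 beside 0.02 over all expressed genes. None of the 30 genes reached 2-fold on the higher side (0 of 30, beside 2.73% of all expressed genes) and 2 did on the lower side (6.67%, beside 1.94%), so 2 were 2-fold apart either way, where 4.67% of all expressed genes were.

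**Figure D2:**
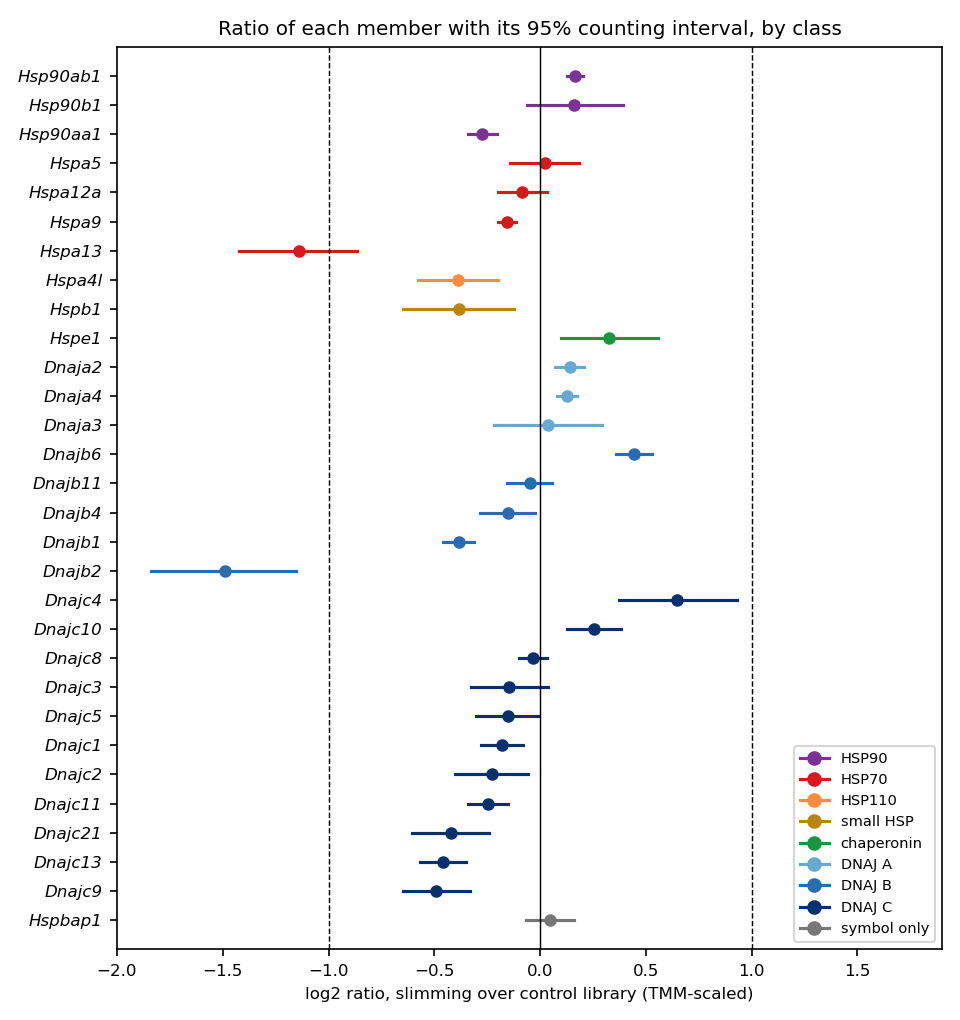
Log2 ratio of slimming over control for the 30 expressed genes, grouped by class from HSP90 at the top to DNAJ C; points are ratios, lines 95% counting intervals, and dashed lines mark 2-fold. Dnajb2 and Hspa13 lie beyond 2-fold on the lower side, and none of the 30 lies beyond it on the higher side.

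The 2 genes past 2-fold were Dnajb2 and Hspa13, and neither shares exon bases with another annotated gene or has a near copy. Of the 30 expressed genes 9 do share exon bases (Dnaja3, Dnaja4, Dnajb6, Dnajc1, Dnajc13, Hspa12a, Hsp90b1, Hspe1 and Hspbap1), and their counts are uncertain to that extent. Dnajb2 (ENSMUSG00000026203, chromosome 1), a co-chaperone with ubiquitin-interacting motifs that passes HSP70 clients to the proteasome, had 100 counts in slimming oocytes and 266 counts in control oocytes, 4.77 CPM against 13.1 CPM. It was 2.80-fold lower (log2 -1.49, interval -1.84 to -1.16), and its interval lay wholly beyond 2-fold. Hspa13 (ENSMUSG00000032932, chromosome 16), a microsomal HSP70 relative that lacks the peptide-binding domain, had 159 counts in slimming oocytes and 332 counts in control oocytes. It was 2.20-fold lower (log2 -1.14), and its interval, -1.42 to -0.87, reached inside 2-fold. Both were under 10 CPM in slimming oocytes and passed that minimum through the control library alone, where they were high, so their calls rest in part on the filter. Of the 30 expressed genes, 27 reached 10 CPM in both libraries, and none of these was 2-fold apart. By their higher library both belong to the genes of 10 to 30 CPM, where 3.72% of all genes, filtered alike, were lower by 2-fold or more, 4.84% higher and 8.56% either. They are 2 of 11 heat shock and DNAJ genes at that level. The summed counts of immune, oviduct and cumulus markers, without the leading gene of each list, were also lower with slimming, as given above, and their part in these calls was not tested. Of the 19 genes at 30 CPM or more, 0 were 2-fold apart, where 2.18% of all such genes were, 1.38% higher and 0.804% lower. Next to the threshold on the other side was Dnajc4 (chromosome 19), a little-studied J protein that reached 10 CPM in the slimming library alone, with 287 counts in slimming oocytes and 173 counts in control oocytes, 1.57-fold higher (log2 0.65, interval 0.37 to 0.93).

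The cytosolic HSP90 pair lay on opposite sides of equal. Hsp90ab1 (ENSMUSG00000023944, chromosome 17), the constitutive isoform, had 12174 counts in slimming oocytes and 10278 counts in control oocytes (log2 ratio 0.16, interval 0.13 to 0.20). Hsp90aa1 (ENSMUSG00000021270, chromosome 12), the heat-inducible isoform, had 3368 counts in slimming oocytes and 3848 counts in control oocytes (log2 ratio -0.27, interval -0.34 to -0.21). Neither differed by as much as 1.5-fold. Hsp90b1, the HSP90 of the endoplasmic reticulum (GRP94), had 354 counts in slimming oocytes and 299 counts in control oocytes, with an interval (-0.06 to 0.39) that included 0. The 3 genes summed to 759 CPM in slimming oocytes and 713 CPM in control oocytes.

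In the HSP70 class the mitochondrial member had the highest level per kilobase. Hspa9 (mortalin, chromosome 18), the import motor of the mitochondrial matrix, had 8886 counts in slimming oocytes and 9357 counts in control oocytes (log2 ratio -0.16, interval -0.20 to -0.11). Hspa5 (BiP, chromosome 2), the HSP70 of the endoplasmic reticulum and the sensor partner of the unfolded protein response, stood at 30.6 CPM in slimming oocytes and 29.5 CPM in control oocytes, with an interval (-0.14 to 0.18) around 0. Hspa12a, a distant relative, had 1253 and 1255 counts in slimming and control oocytes. Hspa2, the HSP70 of spermatocytes, had 102 counts in slimming oocytes and 121 counts in control oocytes, and Hspa12b had 1 count in each. Apart from Hspa13, the expressed HSP70 genes thus stayed within 1.2-fold.

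Hspa8 (HSC70, chromosome 9), the constitutive cytosolic HSP70, had 28 counts in slimming oocytes and 34 counts in control oocytes, 1.34 CPM against 1.68 CPM. It has 12 near copies elsewhere in the annotation, the most of any gene here, where a near copy is another gene whose transcript matches over at least 50% of the shorter transcript and 200 bases at 90% identity or more. Of these copies 1 was in the deposited table, with 2 and 3 counts in slimming and control oocytes. The sources used here do not say what became of reads with several matches, so the low count of Hspa8 cannot be read as a low level of its mRNA. The part of the copies in it was not tested.

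The HSP110 genes, nucleotide exchange factors of HSP70, were each lower in the slimming library. Hspa4l had 410 counts in slimming oocytes and 507 counts in control oocytes (log2 -0.39, -0.58 to -0.20). Hspa4, below 10 CPM, had 114 and 162 counts in slimming and control oocytes (-0.59, -0.95 to -0.23). Hsph1 (chromosome 5), the heat-inducible HSP110, had 43 counts in slimming oocytes and 71 counts in control oocytes (-0.80, -1.39 to -0.24). The class summed to 27.1 CPM in slimming oocytes and 36.6 CPM in control oocytes. Each of the 3 intervals lay below 0, beside 35.1% of all expressed genes, though Hspa4l alone of the 3 reached 10 CPM.

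Dnajb1 and Hspb1, also heat-inducible, were lower with slimming like Hsp90aa1 and Hsph1 when counted alone. Dnajb1 (HSP40, ENSMUSG00000005483, chromosome 8), the inducible J protein that works with HSP70, had 2630 counts in slimming oocytes and 3248 counts in control oocytes (log2 -0.39, -0.46 to -0.31). Hspb1 (HSP25, chromosome 5), a small heat shock protein that binds actin and unfolded proteins, had 221 counts in slimming oocytes and 273 counts in control oocytes (-0.38, -0.65 to -0.12). With the counts of its 2 near copies added (Gm9817 and Hsp25-ps1), Hspb1 had 864 counts in slimming oocytes and 850 counts in control oocytes (log2 ratio -0.06, interval -0.20 to 0.08). Gm9817 had 325 and 296 counts in slimming and control oocytes, and Hsp25-ps1 had 318 and 281. Whether the same reads were counted under both copies was not tested. Dnajb1, Hspb1, Hsp90aa1 and Hsph1 summed to 299 CPM in slimming oocytes and 368 CPM in control oocytes. The slimming share was 45.7% (44.9 to 46.5), beside 50.9% for all counts. Most of these counts were of Hsp90aa1 and Dnajb1, and Hspb1 was counted without its copies. Immediate early genes were lower on the same side, as given above, and their part in the lower sum was not tested. Hspb6, the other small heat shock protein with counts, had 148 and 127 counts in slimming and control oocytes, with an interval around 0.

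Near copies also bear on the HSP90 pair and on the chaperonin. Of 5 near copies of Hsp90aa1, 4 are in the table, among them Gm12346 with 1047 counts in slimming oocytes and 1487 counts in control oocytes, and with these added Hsp90aa1 had a log2 ratio of -0.35 (-0.41 to -0.29). For Hsp90ab1 the ratio with copies was 0.18. Hspe1 (chromosome 1), the lid of the mitochondrial chaperonin, had 370 counts in slimming oocytes and 279 counts in control oocytes (log2 ratio 0.33, interval 0.10 to 0.56). With its copies the counts were 1161 and 1177 in slimming and control oocytes and the ratio was -0.10 (-0.22 to 0.02), and Hspe1-ps2 alone held 785 counts in slimming oocytes and 892 counts in control oocytes. The direction of Hspe1 thus differed with and without the counts of its copies. Hspe1-ps2 matches Hspe1 at 92.0% identity, and whether reads of either gene were placed at the other was not tested. With the trend on transcript length removed, Hspe1 alone had a log2 ratio of 0.05. Hspd1 (HSP60), the chamber of the same chaperonin, had 34 counts in slimming oocytes and 45 counts in control oocytes, has 5 near copies, and had an interval (-1.17 to 0.19) that included 0. In the annotation used for exon overlap, Hspd1 and Hspe1 share 112 exon bases on opposite strands, so a part of their reads cannot be assigned without strand. The RefSeq starts used for the stretch printed below lie apart, so the 2 annotations differ here.

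**Figure D3:**
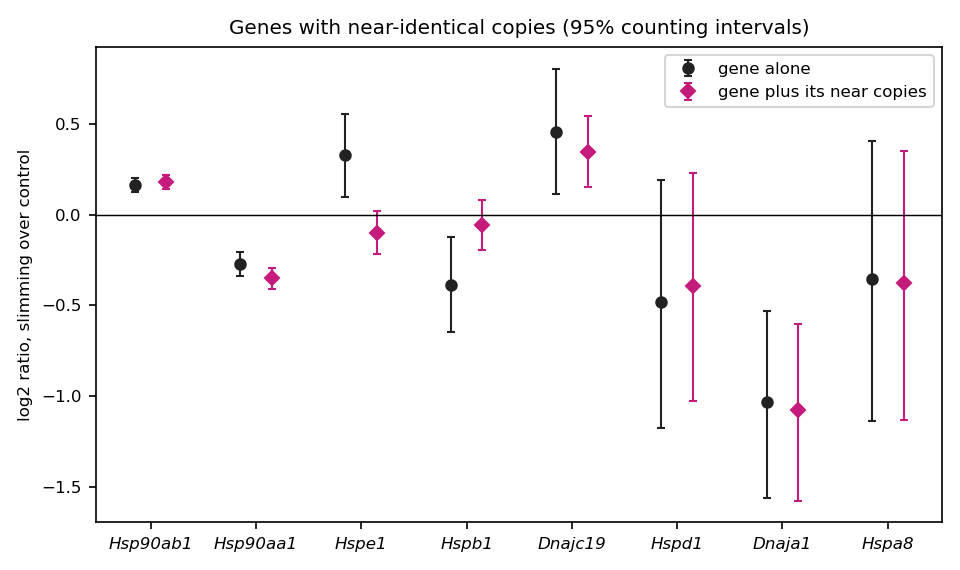
Log2 ratio of slimming over control for 8 genes with near-identical copies, alone (black circles) and with the counts of the copies added (pink diamonds); bars are 95% counting intervals. The ratio moves across 0 for Hspe1, from 0.33 alone to -0.10 with copies, shrinks for Hspb1, and stays on its side of 0 for the other 6.

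Hspd1 and Hspe1 lie head to head, and the 215 bases between their annotated starts (RefSeq, GRCm38.p6, chr1:55087933-55088147, plus strand, the direction of Hspe1) are printed because a single stretch serves both genes. Capitals mark heat shock elements, found as GAANNTTC or TTCNNGAA on either strand, which here overlap into an unbroken run.
Hspd1-Hspe1: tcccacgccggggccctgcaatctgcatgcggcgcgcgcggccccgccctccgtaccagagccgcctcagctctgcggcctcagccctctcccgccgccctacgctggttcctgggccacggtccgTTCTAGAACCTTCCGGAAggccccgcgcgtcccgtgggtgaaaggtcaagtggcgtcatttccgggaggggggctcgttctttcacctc
Counted alone, Hspe1 and Hspd1 on either side of this run had log2 ratios of 0.33 and -0.48, of which only that of Hspe1 had an interval clear of 0. Upstream stretches of 3 further genes show the forms of the element beside the genes that carry them, Dnajb6 (chr5:29735840-29735876, plus strand) with both forms overlapping, Hspb1 (chr5:135887790-135887841, plus strand) with 2 separate ones and Hsph1 (chr5:149636350-149636381, minus strand) with 1, beside a run of overlapping units after its start that is not printed.
Dnajb6: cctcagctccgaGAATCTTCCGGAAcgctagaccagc
Hspb1: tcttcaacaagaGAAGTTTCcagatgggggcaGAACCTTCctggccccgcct
Hsph1: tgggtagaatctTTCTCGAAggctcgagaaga
RefSeq promoter windows, 250 bases before to 50 after a start, were at hand for 57 of the 71 genes. Either 2-unit form was present in 16 of their 74 windows (21.6%), beside 15.1% of 32851 windows of all genes. Longer runs, in which both forms overlap by the shared TTC or GAA to make 3 units, were present in 6 windows (8.11%) of 4 genes, beside 0.603% of all windows. The 6 windows count the same run more than once. Hspd1 and Hspe1 share theirs, and Dnajb6 and Hsph1 each have overlapping windows that hold the same run. The expressed genes Hsp90ab1, Hsp90aa1, Hspa9, Hspa13, Dnajc11, Dnajc5 and Dnajc2 had no window and are left out of the next counts. Among expressed genes with a window, 4 of 6 with a 2-unit element and 6 of 17 without were higher in the slimming library. With the counts of near copies added these were 3 of 6 and 6 of 17, since Hspe1 turned. The 4 without copies were Dnajb6 and Hspe1, which carry the longer run, and Dnaja4 and Dnajc10, while Dnajb4 and Hspb1 were lower. A match of letters is a description and not a binding site.

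Of the DNAJ A genes, the co-chaperones most like bacterial DnaJ, the 3 expressed ones were slightly higher or equal, and Dnaja1, below 10 CPM, was lower. Dnaja2 (chromosome 8), a cytosolic partner of HSP70, had 3716 counts in slimming oocytes and 3190 counts in control oocytes (log2 0.14, 0.07 to 0.21). Dnaja4 (ENSMUSG00000032285, chromosome 9) had 8216 counts in slimming oocytes and 7117 counts in control oocytes (0.13, 0.08 to 0.17). In the annotation 1581 exon bases of Dnaja4 (44.0% of its exons) are shared with Wdr61 on the opposite strand, and Wdr61 had 8189 and 7216 counts in slimming and control oocytes. With no strand stated for the counting, Dnaja4 and Wdr61 cannot be told apart, and the high rank of Dnaja4 rests on reads that either gene could have given. Dnaja3 (TID1), the J protein of the mitochondrial matrix, had 267 and 246 counts in slimming and control oocytes, with an interval around 0. Dnaja1, a farnesylated partner of HSP70, had 50 counts in slimming oocytes and 97 counts in control oocytes, 2.04-fold lower, but lies below 10 CPM and shares exon bases with Smu1, which had 15611 and 13705 counts in slimming and control oocytes. It has 3 near copies, at 97.1% to 99.4% identity, so that like Hspa8 its low count cannot be read as a low level.

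In the DNAJ B class Dnajb6 stood against Dnajb1 and Dnajb2. Dnajb6 (ENSMUSG00000029131, chromosome 5), which keeps polyglutamine proteins from aggregating, had 2867 counts in slimming oocytes and 1993 counts in control oocytes, 1.36-fold higher (log2 0.44, 0.36 to 0.53). Among the 19 genes at 30 CPM or more this was the highest ratio, and it stayed at 0.44 with the counts of its near copies added, of which 4 of 7 are in the table. Dnajb11 (ERdj3), a co-factor of BiP, had 1489 and 1457 counts in slimming and control oocytes and was equal within counting error. Dnajb4, a relative of Dnajb1, had 930 and 978 counts in slimming and control oocytes (-0.15, -0.28 to -0.02). Lower down, Dnajb14 had 98 counts in slimming oocytes and 115 counts in control oocytes, Dnajb9 (ERdj4) 20 against 9, Dnajb12 had 1 in each, and Dnajb7 had 1 against 0. Dnajb5 and Dnajb3 had 0 counts in the slimming library against 22 and 10 in the control library. With a floor of 3 counts in place of 0 they were 7.59-fold and 3.45-fold lower. These are not lower bounds, since the control counts also carry error, and the log2 intervals reached up to -2.53 and -1.25.

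Of the 11 expressed DNAJ C genes, which share little beyond the J domain, 9 were lower in the slimming library. Over all 5714 expressed genes, 2777 were lower. The whole counting interval lay below 0 in 7 of the 11, beside 35.1% of all expressed genes, and 0 of the 11 were 2-fold apart. Dnajc9 (chromosome 14), a histone chaperone that recruits HSP70, had 567 counts in slimming oocytes and 753 counts in control oocytes (log2 -0.49, -0.65 to -0.33). Dnajc21 (chromosome 15), which acts in the late maturation of the large ribosomal subunit, had 444 counts in slimming oocytes and 563 counts in control oocytes (-0.42, -0.61 to -0.24). Dnajc2 (zuotin, MPP11), which docks HSP70 at the ribosome exit, had 526 and 583 counts in slimming and control oocytes (-0.23, -0.40 to -0.06). Dnajc8, a protein of the spliceosome, was equal at 175 CPM in each library, though with the trend of ratios on transcript length removed its log2 ratio was -0.19. These 4 make up the expressed genes with a role at the ribosome, in the nucleus or on RNA, and their median log2 ratio was -0.33. Below 10 CPM, Dnajc17, another nuclear J protein, had 142 counts in slimming oocytes and 70 counts in control oocytes (log2 ratio 0.93).

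Both expressed J proteins of vesicles were lower too. Dnajc13 (RME-8, chromosome 9), which uncoats clathrin on endosomes, had 1261 counts in slimming oocytes and 1638 counts in control oocytes, 1.37-fold lower (log2 -0.46, -0.57 to -0.35). Dnajc5 (cysteine string protein) had 721 and 758 counts in slimming and control oocytes. Dnajc5b had 23 counts in slimming oocytes and 21 counts in control oocytes, and Dnajc6 (auxilin) had 1 against 0. Dnajc13 had the larger gap of the expressed pair, and the interval of Dnajc5 (-0.30 to -0.00) ended just under 0.

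In the endoplasmic reticulum and the mitochondrion most genes were near equal. Dnajc10 (ERdj5, chromosome 2), a disulfide reductase that works with BiP, had 1145 counts in slimming oocytes and 908 counts in control oocytes (log2 0.25, 0.13 to 0.38). Dnajc1 (chromosome 2), a J protein of the reticulum membrane, had 1575 and 1688 counts in slimming and control oocytes (-0.18), and Dnajc3 (p58IPK), an inhibitor of eIF2 kinases, had 482 and 504. The 7 expressed genes of the reticulum had a median log2 ratio of -0.05, and Hspa13 was the exception. Dnajc11 (chromosome 4), a partner of the mitochondrial cristae complex, had 1723 counts in slimming oocytes and 1932 counts in control oocytes (-0.25, -0.34 to -0.15). Dnajc19, a J protein of the mitochondrial import motor, had 174 counts in slimming oocytes and 120 counts in control oocytes, and Dnajc15, its relative, had 39 and 37. The 4 expressed mitochondrial genes had a median of -0.06.

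**Figure D4:**
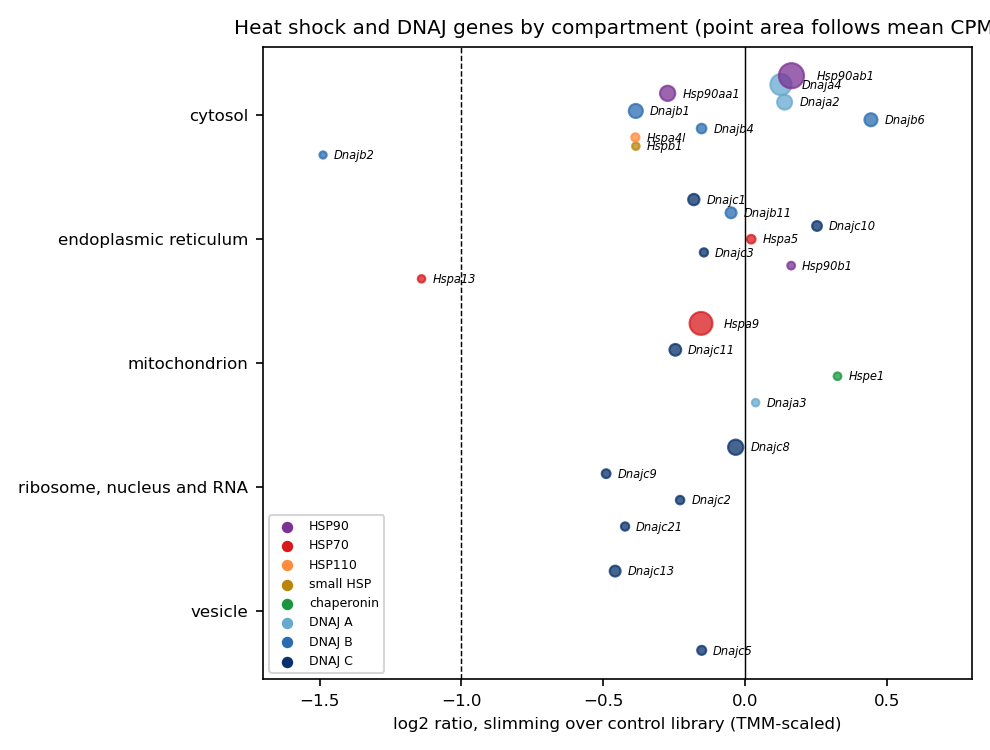
Log2 ratio of slimming over control for expressed genes by compartment, from the cytosol at the top to vesicles at the bottom; colour gives the class and the area of a point grows with mean CPM. The 4 genes of the ribosome, nucleus and RNA lie below 0 (-0.49 to -0.03), as do both vesicle genes, while the cytosol, reticulum and mitochondrion have genes on both sides.

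Between 1 and 10 CPM, 1 of 19 genes was higher by 2-fold or more, beside 16.7% of all genes at that level, and 3 were lower, beside 16.5%. Together 21.1% were 2-fold apart, where 33.2% of all such genes were. Dnajc7 (TPR2), which links HSP70 and HSP90, was 2.64-fold higher, with 121 counts in slimming oocytes and 43 counts in control oocytes; it shares exon bases with Nkiras2, which had 511 and 288. Hspbp1, which bears the name but is an exchange factor for HSP70, had 12 counts in slimming oocytes and 50 counts in control oocytes, 4.27-fold lower (log2 interval -3.18 to -1.21). Dnaja1 and Dnajb5, given above, were the others. Dnajc14 and Dnajc16 had 116 and 113 counts in slimming oocytes and 175 and 152 counts in control oocytes, and Dnajc27 had 78 against 45. Dnajc18, Dnajc24 and Dnajc25 had between 1 and 5 counts. By symbol alone the rule also took Hspbap1, a dioxygenase-like partner of HSPB1, with 1349 and 1235 counts in slimming and control oocytes, and Hspb11 (IFT25), a protein of cilia, with 89 and 67.

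The partners that load and steer these chaperones were set beside them, in a list of 62 genes of which 37 were expressed. Of the 37, 20 were higher and 17 lower in the slimming library, where 51.4% of all expressed genes were higher. A gap of 2-fold or more was seen in 2 that were higher and in 0 that were lower (2.73% and 1.94% of all expressed genes), and the median log2 ratio was 0.05. Bag4, an exchange factor of HSP70, had 292 counts in slimming oocytes and 116 counts in control oocytes, 2.37-fold higher (log2 interval 0.94 to 1.57), and reached 10 CPM in the slimming library alone, where it was high. Bag4 shares exon bases with Gm17484 on the opposite strand. The partners with the highest mean CPM were Ahsa1, Tomm34 and Pfdn4. Ahsa1, the activator of the HSP90 ATPase, stood at 769 CPM in slimming oocytes and 576 CPM in control oocytes (log2 0.39). Tomm34 had a ratio of 0.03 and the prefoldin subunit Pfdn4 one of -0.27. The HSP90 co-chaperones, Ahsa1 included, summed to 1660 CPM in slimming oocytes and 1412 CPM in control oocytes. Most of the gap between these sums lay in Ahsa1. Of the 15 expressed co-chaperones 9 were higher and 6 lower, beside 51.4% of all expressed genes higher, and their median was 0.15. Cdc37 reached 10 CPM in the slimming library alone, and Chordc1 and Fkbp4 in the control library alone. Hsf1 itself had 262 counts in slimming oocytes and 181 counts in control oocytes (0.45, 0.17 to 0.73). It reached 10 CPM in the slimming library alone, where it was high, and its relative Hsf2, below 10 CPM, had 70 against 107. Of the 4 expressed genes in the heat shock factor group, Hsf1 and Hsbp1 were higher. The more abundant Hsf2bp and Hsf5 were lower (-0.28 and -0.22). The group summed to 379 CPM in slimming oocytes and 426 CPM in control oocytes. The TRiC subunits, which fold actin and tubulin, had a median of -0.18, and prefoldin one of -0.08. Their sums were 411 and 764 CPM in slimming oocytes and 397 and 762 CPM in control oocytes.

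**Figure D5:**
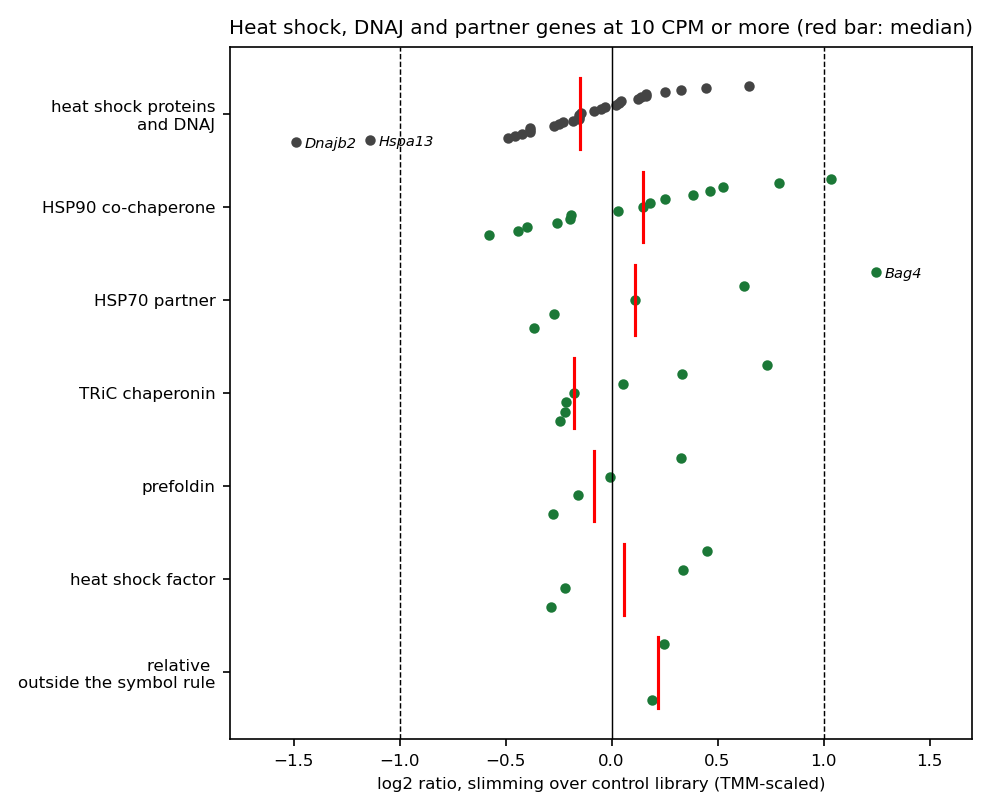
Log2 ratio of slimming over control for the 30 expressed heat shock and DNAJ genes (grey, top) and for 37 expressed partners by group (green); red bars are medians and dashed lines mark 2-fold. The medians are -0.15 for heat shock and DNAJ genes and 0.15 for HSP90 co-chaperones, and the labelled Bag4 lies beyond 2-fold on the higher side.

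The authors' deposited table marked 22 of the 71 genes (31.0%) at its p-value of 0.001, beside 15.1% of all genes. Genes blank in both libraries, 13 of the 71 and 18210 of all 36227, are counted in these shares, which therefore rest on unlike bases. Of the 22 marked genes, 8 were higher and 14 lower in the slimming library. On the scaled log2 ratio of the authors' deposited table, 16 of the 22 were less than 2-fold apart. The mark sets 1 pool of reads against another and so follows depth: Hspa9 was marked at a scaled ratio of -0.12 in the authors' deposited table.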

How the data were processed

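The 9 oocytes of each group were lysed together, reverse transcribed from oligo(dT) primers of 24 bases and amplified for 18 and then 14 PCR cycles before SOLiD 4 sequencing, per the labels' protocols. Build mm9 comes from the submitters' processing notes. How reads were aligned and counted, and whether by strand, is not given in the sources used here. Raw read counts per Ensembl gene were deposited by the authors, blank for 18210 genes, which were read as 0. The authors also deposited log2 ratios, unscaled and scaled, and p-values with q-values, per the file headers. The authors computed a score for each gene, named a z-score per the file headers, which was not used. Of these, the scaled log2 ratio and the p-value mark were used.

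GENCODE vM21 gave a symbol for 30981 of 36227 identifiers; it is on a later build than mm9, used for names, transcript length, exon overlap and copies (blastn 2.17.0). CPM used total counts. Log2 ratios used counts plus 0.5, with library sizes scaled by TMM (edgeR 4.0.16, R 4.3.3; 1.01 for slimming, 0.989 for control), with exact Clopper-Pearson 95% counting intervals. A count of 0 allows up to 3 counts, 0.143 CPM in slimming oocytes and 0.148 CPM in control oocytes. With 1 library per group no test was possible, and genes were called by size (2-fold, at 10 CPM or more in a library). Promoters came from RefSeq (GRCm38.p6). DESeq2 1.42.0 gave alternative size factors.

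Named by rule were the 10 most abundant genes, the 6 largest ratios on each side whose interval excluded 0, the leader of each class, fixed heat-inducible and compartment chaperones, genes past or among the 3 nearest to 2-fold, and partners past 2-fold or among the 3 most abundant. Of these partners, 1 is not reported here. Other genes, and the compartment groups, were chosen after their values were seen. The members and lists were chosen with earlier results of these data known.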

Additional observations from a re-analysis of the deposited data

How the results depend on the processing

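Dnajb2 and Hspa13 were the 2 genes at least 2-fold lower, and 0 were at least 2-fold higher, with total-count scaling, DESeq2 size factors, 1 or 5 added to each count, the length trend removed, and without genes that share exon sequence. The same held without genes that have a near copy and with the counts of copies added, alternatives chosen after seeing the data. With a minimum of 1 CPM, 5 genes were at least 2-fold lower and 1 higher, and with no minimum 6 and 4, as more genes with few counts enter. With a minimum of 30 CPM, 0 were lower, since both genes lie below it. Of the 2, 1 (Dnajb2) had an interval wholly beyond 2-fold, and at 1.5-fold 1 gene (Dnajc4) was higher. The median log2 ratio lay between -0.16 and -0.08 under all alternatives. The sign of 30 expressed genes changed for 0 under other scalings or added counts, for Hspbap1 with the length trend removed and for Hspe1 with copies added. The length trend also moved Dnajc8 to -0.19 and Hspe1 to 0.05. The log2 ratio of the summed level, -0.0044, became -0.036 with TMM sizes, -0.048 without Hsp90ab1, the most abundant gene, and, chosen after seeing the data, -0.027 without Dnaja4; the cause was not tested. Other scalings moved the median of all expressed genes between 0.02 and 0.05. No paired analysis was possible because each group is 1 library, and leaving out a replicate leaves none. Depth limits the 9 genes below 1 CPM to at most 20 counts in a library.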

Other observations

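Of 9 pseudogenes that bear these names and were left out above, Hspe1-ps2 and Dnajc19-ps had more counts than the genes they are named for. Hspe1-ps2 (chromosome 18) had 785 counts in slimming oocytes and 892 counts in control oocytes, against 370 and 279 for Hspe1. Dnajc19-ps (chromosome 7) had 325 counts in slimming oocytes and 251 counts in control oocytes, against 174 and 120 for Dnajc19, and both had positive log2 ratios (0.29 and 0.45). Hspa9-ps1 on the X chromosome had 30 and 37 counts in slimming and control oocytes. Of 71 heat shock and DNAJ genes, 17 have a near copy and 27 share exon bases with another annotated gene.

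Gm45902 (ENSMUSG00000051396, chromosome 2), whose annotated exons overlap those of Hspa14 on the same strand, had 1082 counts in slimming oocytes and 806 counts in control oocytes (log2 ratio 0.34, interval 0.21 to 0.48). This may be an older identifier of Hspa14, which would make it a heat shock gene of the set, and the annotation used here does not settle it. Hyou1, the HSP110 relative of the endoplasmic reticulum, lay below 10 CPM and had 136 counts in slimming oocytes and 63 counts in control oocytes, 2.03-fold higher, and Trap1, the mitochondrial HSP90, had 108 against 61. Bag1, an exchange factor of HSP70, also lay below 10 CPM, with 53 counts in slimming oocytes and 14 counts in control oocytes.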
